A study of Homo sapiens with 8 samples.

Results

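ODZ3, PROM2, ARAF, SYN1 and NFATC2 were followed as 5 genes out of the 55075 listed in the gene tables of a heat shock study in HCT116 cells, an established human colon cancer line. They were taken up by symbol, because earlier reading of the same counts had put them among genes with little RNA left in the derivative line that carries a knockout (KO) of FBXW7. They were thus selected on the difference in RNA level between the KO line and the wild-type (WT) line, and that difference is given below as a description with no test. All 5 had enough reads to enter the fit, in which 17471 genes were tested. The name of the set held for part of it. ODZ3, PROM2 and ARAF were far lower in every KO library, NFATC2 was 2.35-fold lower at heat shock and 10.7-fold lower at recovery, and SYN1 did not differ from WT beyond the spread of its libraries.

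FBXW7 is the substrate-recognition subunit of an SCF-type ubiquitin ligase. HCT116 WT cells and HCT116 FBXW7 KO cells were each heated at 42 °C for 1 h, giving the heat shock groups, or heated in the same way and then kept at 37 °C for 2 h, giving the recovery groups. There were 2 libraries in each of the 4 groups, and the labels name no further treatment. Unheated cells were not analysed here, so every level below comes from cells that had been heated. The sources used here do not give how the KO line was derived, whether it was 1 clone or whether replicates were separate cultures. The p-values therefore reflect the spread of these libraries alone, which may be technical.

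The libraries held 15507896 to 34387618 counts. FBXW7 itself had 21.7 to 33.5 CPM (counts scaled to library size) in the WT libraries and 13.8 to 17.4 CPM in the KO libraries, with no overlap, so its RNA was lower in the KO line but still present; counts per gene do not show which exons the reads covered. All 9 epithelial markers passed the filter on low counts, and their summed level was 2958 to 3272 CPM in WT and 2164 to 2284 CPM in KO at heat shock, and 2900 to 2960 CPM against 2527 to 2627 CPM at recovery. It was thus lower in every KO library than in every WT library. Among these markers CLDN4, a tight junction claudin, had group means of 117 and 220 CPM in WT and 22.1 and 46.9 CPM in KO. The list was mixed, since KRT19, a keratin, had 590 and 494 CPM in WT and 601 and 753 CPM in KO. EPCAM was also higher in KO at heat shock (294 against 267 CPM), and KRT8 at recovery (829 against 805 CPM). Of markers of other cell types, 1 of 5 immune, 2 of 7 fibroblast, 1 of 3 endothelial and 0 of 2 erythroid genes passed, and CD3E and LUM had no reads. The neuronal list passed with 4 of 5 genes at a summed 51.9 to 195 CPM, but SYT1 alone had group means of 51.8 to 191 CPM. The group means of SYP, SNAP25 and RBFOX3 were 0.026 to 1.12 CPM, and STMN2 had no reads. The part of this list in the values of SYN1 and ODZ3 was not tested. In bulk counts, fewer cells that express a gene and less RNA per cell cannot be told apart.

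The products of these genes work in different places. ODZ3, now named TENM3, encodes a teneurin, a large single-pass membrane protein that binds teneurins and latrophilins on neighbouring cells and is best known for guiding neuronal wiring. PROM2 encodes prominin 2, a multi-pass, cholesterol-binding glycoprotein of plasma membrane protrusions in epithelial cells. ARAF encodes a serine/threonine kinase of the RAF family, which takes the signal from active RAS to the MEK and ERK kinases. SYN1 encodes synapsin I, a phosphoprotein that tethers synaptic vesicles and is known as a neuronal gene. NFATC2 encodes a transcription factor that moves to the nucleus when calcineurin, a calcium-activated phosphatase, removes its phosphate groups.

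The promoters are shown because 4 of the genes were low together in the KO line while SYN1 was not, and the letters let their start regions be set side by side. All 5 matched the RefSeq promoter table (build GRCh38.p14), which holds 250 bases before and 50 bases after each start. ODZ3 and NFATC2 have a pair of starts there, and the outermost is printed. Each run reads 5′ to 3′ on the gene's own strand, with CG dinucleotides, the sites of DNA methylation, in capitals. They lie at chr4:182143713-182144012 on the plus strand (ODZ3), chr2:95274199-95274498 plus (PROM2), chrX:47560955-47561254 plus (ARAF), chrX:47619808-47620107 minus (SYN1) and chr20:51562790-51563089 minus (NFATC2).
ODZ3: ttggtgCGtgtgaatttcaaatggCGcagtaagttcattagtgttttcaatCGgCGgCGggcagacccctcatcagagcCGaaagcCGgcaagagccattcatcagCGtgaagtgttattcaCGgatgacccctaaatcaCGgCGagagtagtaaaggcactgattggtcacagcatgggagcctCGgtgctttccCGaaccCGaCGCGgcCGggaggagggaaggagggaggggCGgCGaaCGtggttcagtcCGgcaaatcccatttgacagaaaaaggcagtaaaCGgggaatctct
PROM2: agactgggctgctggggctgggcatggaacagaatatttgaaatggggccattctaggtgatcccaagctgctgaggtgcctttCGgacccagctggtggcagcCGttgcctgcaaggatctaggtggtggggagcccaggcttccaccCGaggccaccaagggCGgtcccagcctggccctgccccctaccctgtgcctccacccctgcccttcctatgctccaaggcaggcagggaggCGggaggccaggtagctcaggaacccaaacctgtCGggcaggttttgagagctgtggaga
ARAF: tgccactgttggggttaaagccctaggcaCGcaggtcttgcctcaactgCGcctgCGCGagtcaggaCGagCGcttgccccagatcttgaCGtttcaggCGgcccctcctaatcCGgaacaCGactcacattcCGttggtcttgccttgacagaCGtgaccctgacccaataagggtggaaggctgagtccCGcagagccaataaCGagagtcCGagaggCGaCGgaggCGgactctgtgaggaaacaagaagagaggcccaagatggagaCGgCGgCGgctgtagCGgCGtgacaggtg
SYN1: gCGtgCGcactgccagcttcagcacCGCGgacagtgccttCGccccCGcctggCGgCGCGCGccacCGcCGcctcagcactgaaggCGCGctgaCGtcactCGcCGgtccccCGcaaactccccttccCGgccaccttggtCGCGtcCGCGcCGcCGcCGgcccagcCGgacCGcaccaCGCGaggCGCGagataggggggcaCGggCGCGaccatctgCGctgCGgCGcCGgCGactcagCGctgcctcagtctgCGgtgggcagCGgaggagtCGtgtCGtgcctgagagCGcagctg
NFATC2: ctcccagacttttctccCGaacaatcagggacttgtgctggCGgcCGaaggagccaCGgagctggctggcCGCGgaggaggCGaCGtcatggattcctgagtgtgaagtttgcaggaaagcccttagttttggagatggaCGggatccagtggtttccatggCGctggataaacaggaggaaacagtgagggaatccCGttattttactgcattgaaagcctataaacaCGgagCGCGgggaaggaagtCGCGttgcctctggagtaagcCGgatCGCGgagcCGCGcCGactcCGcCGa

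The start regions were not alike. PROM2 held 6 CG dinucleotides, with an observed over expected CpG ratio of 0.20, and 21.6% of the 35116 promoters in the table lay at or below it. ODZ3 held 22, ARAF 23, NFATC2 24 and SYN1 46, with ratios of 0.996, 0.848, 0.990 and 1.09, against a median of 0.579 over all promoters. The GC box GGGCGG, which 44.95% of all promoters hold on either strand, was found once in ODZ3 and once in PROM2 and not in the printed windows of ARAF, SYN1 and NFATC2. The TATA-type motif TATAAA was found once, in NFATC2, against 11.53% of all promoters. The other NFATC2 start, which is not printed, differed, with 38 CG dinucleotides, 3 GC boxes and no TATAAA. The other ODZ3 start held 39 CG dinucleotides, 1 GC box and no TATAAA. The E-box CACGTG (7.256% of promoters), the AP-1 motif TGACTCA (4.949%) and the heat shock element core GAANNTTC (6.769%) were found in none of the 5 windows. A match in these letters is a description of the window, and DNA methylation was not measured.

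The genes sit on 4 chromosomes (GENCODE v29, GRCh38, matched to the files by Ensembl identifier). ODZ3 (ENSG00000218336) spans chr4:182143987-182803024, PROM2 (ENSG00000155066) chr2:95274453-95291308 and NFATC2 (ENSG00000101096) chr20:51386957-51562831. ARAF (ENSG00000078061, chrX:47561100-47571920, plus strand) and SYN1 (ENSG00000008056, chrX:47571898-47619943, minus strand) run towards each other and share 23 bases at their 3′ ends. Since the sources used here do not give the strand setting of the counting, reads in those bases could belong to either gene. TIMP1, which encodes a metalloproteinase inhibitor, lies within SYN1 on the other strand over 4477 bases and had 1833 to 3141 counts in each library.

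ODZ3 had the largest loss of the 5. After heat shock its level was 22.8 and 18.8 CPM in the WT libraries and 0.56 and 0.68 CPM in the KO libraries, and after recovery 14.6 and 13.5 CPM against 0.67 and 0.65 CPM. Every WT library stood above every KO library, and the KO groups overlapped each other. Behind these levels lay 227 to 446 counts per WT library and 15 to 24 per KO library, so the gene was not silent in the KO line. On the log2 scale the KO line was lower than WT, at -5.04 ± 0.19 (standard error, n = 2 libraries per group throughout) at heat shock and -4.40 ± 0.20 at recovery. From the lowest, these differences ranked 20 and 254 among the 17471 genes. AC079226.1, an antisense transcript that overlaps ODZ3 over 1367 bases, had 15, 12, 8 and 3 counts in the WT libraries and 0 or 1 in each KO library, and as the strand setting of the counting is unknown, some reads of either could have been counted for the other.

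PROM2 was measured after heat shock at 5.37 and 7.53 CPM in WT and 0.26 and 0.40 CPM in KO libraries, and after recovery at 4.92 and 5.75 CPM against 0.36 and 0.65 CPM. The lines did not overlap, while within each line the heat shock and recovery libraries did. The KO level was 5.11% of WT at heat shock and 9.41% at recovery. The log2 difference was -4.23 ± 0.30 and -3.37 ± 0.31, ranks 38 and 546 from the lowest. Its KO values rest on 7 to 17 counts per library, the fewest of the 5 genes. The summed epithelial markers were also lower in the KO line, though KRT19 among them was higher at both conditions. The part of these markers in the difference of PROM2, itself an epithelial gene, was not tested.

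ARAF kept its groups fully apart. Heat-shocked WT libraries stood at 53.5 and 41.2 CPM and heat-shocked KO libraries at 3.89 and 4.0 CPM, and the recovered libraries at 29.9 and 27.4 CPM against 5.75 and 5.21 CPM. The order ran from WT heat shock through WT recovery and KO recovery down to KO heat shock, and no neighbouring groups in that order overlapped. The KO line held 8.35% of the WT level at heat shock and 19.2% at recovery, with log2 differences of -3.58 ± 0.14 and -2.39 ± 0.14. These ranked 66 and 889 from the lowest. With 104 to 141 counts in each KO library, ARAF RNA was reduced but well measured there.

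NFATC2 differed from the other genes in when it was low. Heat-shocked cells gave 6.75 and 7.02 CPM in WT and 2.66 and 3.21 CPM in KO libraries, and recovered cells 15.1 and 13.5 CPM against 1.29 and 1.37 CPM. The groups did not overlap and ran from WT recovery through WT heat shock and KO heat shock to KO recovery. Thus the KO line had 42.6% of the WT level at heat shock and 9.32% at recovery. The log2 differences were -1.22 ± 0.16, rank 1223, and -3.42 ± 0.18, rank 530 from the lowest.

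SYN1 went against the name of the set. The WT libraries had 1.43 and 1.38 CPM after heat shock and 1.76 and 1.30 CPM after recovery, and the KO libraries 1.31 and 1.82 CPM and then 1.74 and 1.22 CPM. All groups overlapped in range with the next in order, and the log2 difference was 0.17 ± 0.29 at heat shock and -0.06 ± 0.31 at recovery. Over the 14 alternative settings it ran from -0.11 to 0.51 at heat shock and from -0.33 to 0.19 at recovery. At 22 to 64 counts per library, a small difference was not detectable at this depth. The ratio of SYN1 to ARAF counts was 0.0268 to 0.0589 in the WT libraries and 0.234 to 0.454 in the KO libraries. ARAF was chosen for its low KO level, so the ratio mostly restates that difference. Counts per gene do not show how many reads lay in the bases that the genes share.

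**Figure D1:**
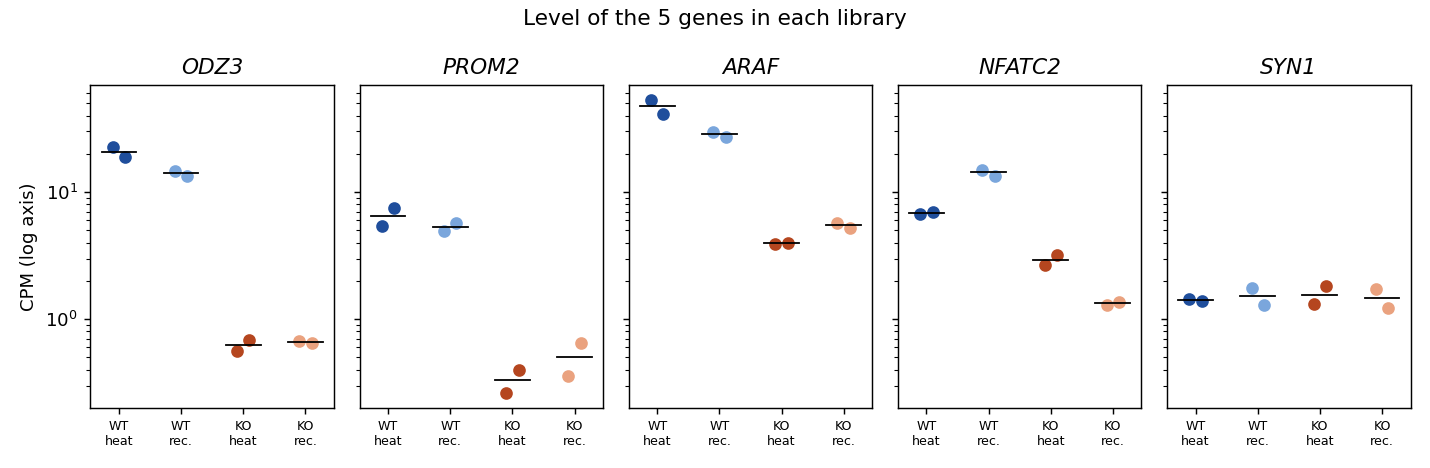
Level of each gene in CPM on a log axis, with 1 point per library and a line at the mean of each group of 2. ODZ3, PROM2, ARAF and NFATC2 have all 4 WT points above all 4 KO points, and SYN1 stays between 1.22 and 1.82 CPM in every group.

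In 4 of the 5 genes all 4 WT libraries stood above all 4 KO libraries, against 14.3% of the genes tested. ODZ3 and PROM2 were at least 8-fold lower in KO at both conditions, as were 0.389% of the genes tested, and ARAF joined them at a 4-fold limit, against 0.944%. NFATC2 passed at 2-fold with 4.25% of the genes, and SYN1 did not. Since the difference between the lines chose the genes, nothing is read from these shares. No threshold on the values was part of the choice.

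Recovery within each line asked another question, whether the RNA level moved in the 2 h after heat. These changes share their libraries with the contrast that chose the genes, so their p-values are not free of that choice. In WT cells ODZ3 and ARAF fell and NFATC2 rose, 3 calls of 5, where 50.8% of all genes tested were called (26.0% lower and 24.8% higher). In KO cells ARAF rose and NFATC2 fell, 2 calls of 5 against 41.8% (20.6% higher and 21.1% lower). A share of this size is near that of all genes. The 7295 calls behind the KO share became 4801 with DESeq2, and 2838 and 4555 on leaving out KO heat shock replicate 1 or 2 and 3245 and 4645 on leaving out KO recovery replicate 1 or 2.

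For NFATC2 the change was 1.05 ± 0.15 on the log2 scale in WT (adjusted p = 1.8e-05) and -1.14 ± 0.22 in KO (adjusted p = 4.0e-04, edgeR quasi-likelihood test with Benjamini-Hochberg adjustment). Both pairs of WT libraries rose and both pairs of KO libraries fell. The KO level lay furthest below WT at recovery (9.32% of WT, against 42.6% at heat shock). Choosing NFATC2 for a low KO level could therefore have favoured both changes, and the p-values do not allow for that. The authors' deposited table gives log2 fold changes of 1.29 and 1.09 for the WT pairs and -1.20 and -1.31 for the KO pairs, scaled by column totals. Both calls held in all 14 alternative settings. Of all genes tested, 10.5% rose in WT and fell in KO with both changes called.

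ARAF moved the other way round. In WT its log2 level fell by 0.72 (standard error 0.11, adjusted p = 2.2e-05) and in KO it rose by 0.47 ± 0.15 (adjusted p = 0.0173). The same crossing was called for 11.5% of all genes. The fall in WT held in all settings, but was -0.35 with offsets for GC content and transcript length (adjusted p = 0.00358). The rise in KO was not stable: it lost its call with DESeq2 (adjusted p = 0.0674), with the GC and length offsets (0.17, adjusted p = 0.357), and on leaving out any KO library: heat shock replicate 1 (adjusted p = 0.262) or 2 (0.079), recovery replicate 1 (0.224) or 2 (0.0739).

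ODZ3 fell by 0.57 in WT (log2, standard error 0.13, adjusted p = 0.00132), a call that DESeq2 did not make (-0.55, adjusted p = 0.0536). In KO its change was 0.07 ± 0.33 (adjusted p = 0.899). PROM2 had -0.27 ± 0.20 in WT (adjusted p = 0.282) and 0.61 ± 0.43 in KO (adjusted p = 0.279), and neither passed. The first WT pair of PROM2 turned with the scaling: 5.37 against 4.92 CPM is a lower value at recovery, while the authors' deposited table gives a log2 fold change of 0.01 for it. SYN1 had 0.12 ± 0.35 in WT (adjusted p = 0.804) and -0.11 ± 0.30 in KO (adjusted p = 0.801). The KO response minus the WT response was -2.19 ± 0.27 for NFATC2, 1.18 ± 0.18 for ARAF, 0.87 ± 0.48 for PROM2, 0.63 for ODZ3 and -0.23 for SYN1. It holds the difference between the lines and is given with no test, beside the 56.3% of all genes tested for which it was called (28.5% higher, 27.8% lower).

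**Figure D2:**
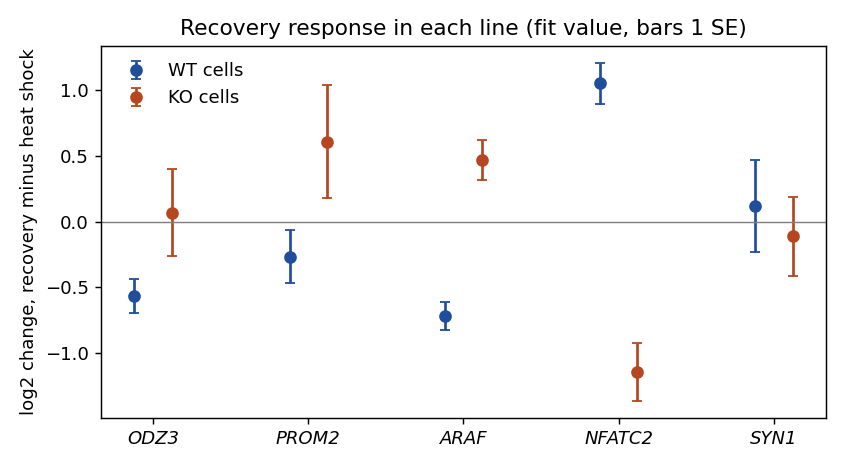
Fitted log2 change from heat shock to recovery for each gene in WT and KO cells, with bars of 1 standard error. NFATC2 lies at 1.05 in WT and -1.14 in KO, ARAF at -0.72 and 0.47, and SYN1 within 1 standard error of 0 in both lines.

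The nearest relatives of the genes gave a measure of whether their families were low as well. The teneurins ODZ1, ODZ2 and ODZ4 had at most 3 counts in any library and were not tested, so ODZ3 was the only teneurin that passed the filter. Of 9 genes on a list of teneurins and their partners, LPHN1, a latrophilin that binds teneurins, was the 1 that passed the filter. It was lower in KO at heat shock (log2 -0.39 ± 0.10, adjusted p = 0.00391), a difference that was 0.00 with GC and length offsets (adjusted p = 0.955), and did not pass at recovery (0.01 ± 0.10, adjusted p = 0.955), where the offsets gave -0.16 (adjusted p = 0.0362). Between the lines, 55.5% of all genes tested were called at heat shock (27.4% higher in KO, 28.2% lower) and 63.1% at recovery (31.8% higher, 31.3% lower).

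PROM1, the other prominin, did not share the loss of PROM2. It had 26.9 ± 0.07 CPM (SD, n = 2) in WT heat shock and 33.3 ± 2.05 CPM (SD) in KO heat shock, a log2 difference of 0.31 ± 0.10 (adjusted p = 0.0147) whose call was lost without WT heat shock replicate 1 (0.27, adjusted p = 0.0517), without KO heat shock replicate 1 (0.25, adjusted p = 0.128) and with GC and length offsets (0.05, adjusted p = 0.673). At recovery the difference was -0.22 ± 0.10 (adjusted p = 0.0737), and it passed with upper-quartile scaling (-0.38, adjusted p = 0.00445), without WT heat shock replicate 1 (adjusted p = 0.047) or 2 (0.0465) and without KO recovery replicate 2 (0.0425). On a list of 10 prominin, membrane microdomain and protrusion genes, 2 were higher and 5 lower in KO at heat shock (median log2 -0.26, against -0.03 over all genes tested), and 4 were higher and 3 lower at recovery (median -0.04, against -0.01). The caveolae proteins CAV1 and CAV2, which shape small pits of the plasma membrane, were lower at both, by log2 -1.45 ± 0.10 and -0.83 ± 0.10 at heat shock and -1.26 ± 0.10 and -1.31 ± 0.10 at recovery. FLOT2, a flotillin of membrane microdomains, was lower at heat shock (-1.06 ± 0.11, adjusted p = 2.2e-06). PTRF, another protein of caveolae, had -0.11 ± 0.09 at heat shock (adjusted p = 0.308), which passed as lower without WT heat shock replicate 2 (-0.23, adjusted p = 0.022) and as higher with GC and length offsets (0.21, adjusted p = 0.0141). At recovery PTRF was higher (0.98 ± 0.09, adjusted p = 6.1e-07), as was SLC9A3R1, a scaffold of apical membranes (0.91 ± 0.09, adjusted p = 5.5e-07, or 0.58 with the offsets).

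BRAF, a RAF kinase with the same place in the cascade, showed no difference of the size of that of ARAF. It had 21.1 ± 1.66 CPM (SD, n = 2) in WT and 26.9 ± 2.27 CPM (SD) in KO at heat shock, a log2 difference of 0.35 ± 0.11 (adjusted p = 0.0151), and -0.18 ± 0.11 at recovery (adjusted p = 0.165), which passed with upper-quartile scaling (-0.35, adjusted p = 0.0143). The heat shock call for BRAF was lost without WT heat shock replicate 1 (0.23, adjusted p = 0.137), without KO heat shock replicate 1 (0.26, adjusted p = 0.139) and with GC and length offsets (0.01, adjusted p = 0.914).

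Among 19 genes of the RAF-MEK-ERK cascade, 9 were higher and 6 lower in KO at heat shock (median log2 0.075, against -0.03 over all genes), and 5 were higher and 7 lower at recovery (median 0.08, against -0.01). HRAS, a RAS protein that activates RAF kinases, was lower at heat shock (-0.97 ± 0.15, adjusted p = 1.0e-04, or -0.49 with GC and length offsets) and higher at recovery (1.26 ± 0.16, adjusted p = 1.2e-05). At recovery SOS2, an exchange factor that loads RAS with GTP, was lower (-1.53 ± 0.13, adjusted p = 2.1e-07), and so was YWHAZ, an adaptor of the 14-3-3 family that binds RAF (-1.06 ± 0.08, adjusted p = 4.7e-08). Transcripts known to follow ERK activity leaned lower in KO at heat shock and higher at recovery. Of 14, 3 were higher and 7 lower at heat shock (median -0.23, against -0.03 over all genes). At recovery 8 were higher and 2 lower (median 0.43, against -0.01). EGR1, an immediate early transcription factor, was lower in KO at heat shock (-0.89 ± 0.12) and higher at recovery (1.80 ± 0.12). ETV5, an ETS factor, was lower at both (-1.08 ± 0.08 and -1.61 ± 0.08), and FOSL1, an AP-1 subunit, was higher at recovery (1.47 ± 0.12).

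SYN2, the other synapsin with reads enough to test, was lower in KO at heat shock (log2 -0.49 ± 0.14, adjusted p = 0.00885). That call was lost without KO heat shock replicate 2 (-0.38, adjusted p = 0.0963), and the recovery difference was 0.01 ± 0.15 (adjusted p = 0.972). SYN3 had at most 1 count in any library. On the list of synapsins and synaptic vesicle genes, 12 of 14 were tested, and 4 were higher and 7 lower in KO at heat shock (median -0.42), with 2 higher and 5 lower at recovery (median -0.11). STX1A, a syntaxin of the vesicle fusion machinery, was lower at heat shock (-1.39 ± 0.17, adjusted p = 8.8e-06). SYT1, the calcium sensor of vesicle release, was lower at recovery (-1.88 ± 0.08, adjusted p = 4.1e-10). SNAP25, a partner of syntaxins in membrane fusion, went the other way, at 1.07 ± 0.09 CPM (SD, n = 2) in KO against 0.026 ± 0.036 CPM (SD) in WT at heat shock (adjusted p = 2.2e-05) and 1.12 ± 0.13 CPM (SD) against 0.18 ± 0.003 CPM (SD) at recovery (adjusted p = 3.8e-04). With WT levels so close to 0, no fold is given for SNAP25.

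The other NFAT factors differed among themselves. NFATC3, also activated by calcineurin, was higher in KO, at 0.47 ± 0.08 at heat shock (adjusted p = 2.4e-04) and 0.59 ± 0.08 at recovery (adjusted p = 2.6e-05). NFATC1 had 0.04 ± 0.09 at heat shock (adjusted p = 0.704) and was lower at recovery (-0.66 ± 0.10, adjusted p = 3.2e-05). Recovery was also the condition at which NFATC2 in KO lay furthest below WT. With GC and length offsets NFATC1 was higher in KO at heat shock (0.34, adjusted p = 0.00367). NFATC4, at 0.63 to 2.34 CPM over the group means, differed by -0.29 ± 0.35 at heat shock (adjusted p = 0.506) and was lower at recovery (-1.44 ± 0.29, adjusted p = 5.2e-04). Like NFATC2, it rose in WT recovery (1.60, adjusted p = 8.2e-04).

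NFAT5, which responds to salt stress and does not depend on calcineurin, had -0.20 ± 0.09 at heat shock (adjusted p = 0.087) and was lower at recovery (-0.56 ± 0.09, adjusted p = 1.2e-04). The recovery difference of NFAT5 was -0.31 with GC and length offsets. Its heat shock difference passed under that setting (adjusted p = 1.7e-04), with upper-quartile scaling (0.0292), without WT heat shock replicate 2 (0.0466) and without KO heat shock replicate 1 (0.0224). Of 22 tested genes for NFAT factors, calcineurin and calcium entry, 9 were higher and 8 lower at heat shock (median 0.00), and 8 were higher and 5 lower at recovery (median -0.03). ORAI3, a subunit of store-operated calcium channels, was lower at recovery (-2.11 ± 0.27, adjusted p = 9.4e-06).

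**Figure D3:**
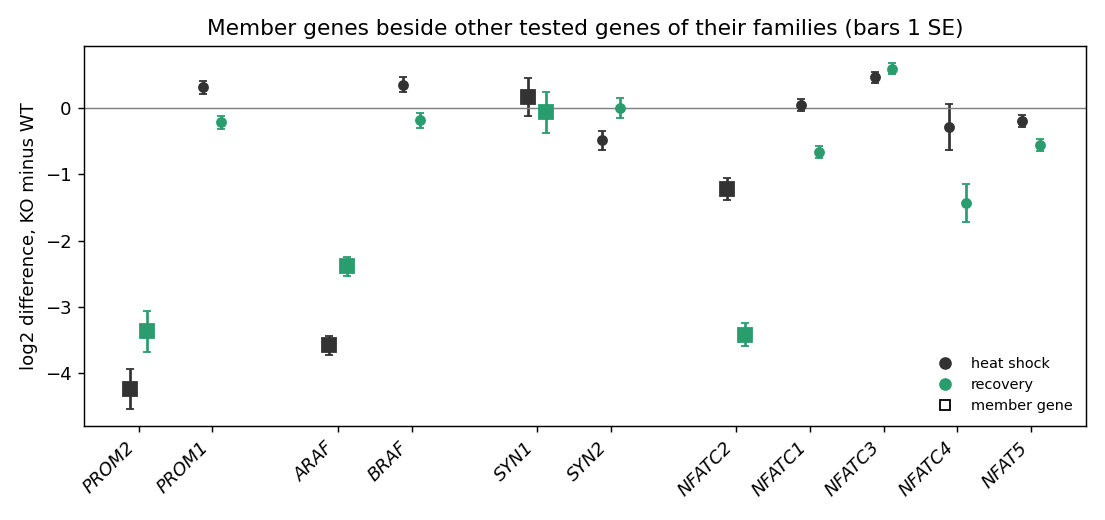
Log2 difference between KO and WT cells at heat shock and at recovery for PROM2, ARAF, SYN1 and NFATC2 (squares) beside other tested genes of their families (circles), with bars of 1 standard error. PROM2 and ARAF lie at -4.23 and -3.58 at heat shock, while PROM1 and BRAF lie at 0.31 and 0.35.

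The genes next to each locus were then read in the same way, taking the 5 nearest coding genes on each side, whatever their distance. Around ODZ3, 7 of 10 were tested, and at heat shock 5 were higher in KO and 0 lower, with differences of 0.08 to 1.85. The nearest downstream gene, DCTD, a deoxycytidylate deaminase, lies 87036 bases away and had 0.08 ± 0.08 at heat shock (adjusted p = 0.445) and 0.43 ± 0.08 at recovery (adjusted p = 4.1e-04). With GC and length offsets the values of DCTD were 0.30 (adjusted p = 0.00207) and 0.13 (adjusted p = 0.12). WWC2, a scaffold protein of the Hippo pathway on the same side, was higher in KO at both (1.65 ± 0.09 and 0.59 ± 0.09). None of the tested neighbours of ODZ3 was lower in KO at heat shock, and 1 was at recovery. Their median difference was 0.87 at heat shock and 0.37 at recovery. Over the 598 tested genes of chromosome 4 it was 0.20 and -0.16, against -0.03 and -0.01 over all genes tested. On the upstream side the tested genes were far away, SPCS3 at 5811742, NEIL3 at 4781044 and AGA at 4701484 bases. SPCS3 was the gene lower at recovery (-0.29 ± 0.10), and SPCS3 and NEIL3 were among those higher at heat shock.

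Around PROM2, 5 neighbours were tested and 1 was higher and 1 lower in KO at heat shock, with 1 higher and 2 lower at recovery. KCNIP3, a calcium-binding protein whose gene lies 5996 bases from PROM2, had -0.45 ± 0.33 at heat shock (adjusted p = 0.266) and -0.68 ± 0.35 at recovery (adjusted p = 0.102). With upper-quartile scaling or GC and length offsets the recovery difference of KCNIP3 passed (adjusted p = 0.0464 and 0.0237). The lower gene at heat shock, FAHD2A, had -0.55 ± 0.15 (adjusted p = 0.00648), and lost its call without KO heat shock replicate 1 (-0.46, adjusted p = 0.0568). ZNF514, a zinc finger gene on the other side, was lower at recovery (-2.46 ± 0.23, adjusted p = 3.8e-07).

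Around ARAF and SYN1, 9 neighbours had differences of -0.82 to 0.67 at heat shock, 2 higher and 5 lower in KO. At recovery 4 were higher and 0 lower, and the range was -0.37 to 0.69. TIMP1, within SYN1, was lower at heat shock (-0.49 ± 0.09, adjusted p = 2.5e-04) and did not pass at recovery (0.17 ± 0.09). With GC and length offsets TIMP1 lost the first call (-0.03, adjusted p = 0.72) and was lower at recovery (-0.21, adjusted p = 0.00856), and the recovery difference also passed, as higher, without the filter on low counts (adjusted p = 0.0205) and without either WT heat shock replicate (0.0256 and 0.0265). UBA1, the ubiquitin-activating enzyme, crossed from -0.70 ± 0.11 to 0.53 ± 0.11, or from -0.42 to 0.25 with those offsets. ELK1, an ETS factor phosphorylated by ERK, was higher at heat shock (0.67 ± 0.10). Thus none of the tested genes beside ARAF had a difference near its -3.58.

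Around NFATC2, 9 neighbours were tested, and 2 were higher and 3 lower in KO at each condition. ATP9A, a phospholipid flippase and the nearest on 1 side, did not pass at heat shock (-0.18 ± 0.08, adjusted p = 0.0794) or recovery (-0.11 ± 0.09, adjusted p = 0.282). It passed with upper-quartile scaling at both (adjusted p = 0.0222 and 0.011), without WT heat shock replicate 2 at heat shock (0.0346) and with GC and length offsets at recovery (0.0395). KCNG1, a potassium channel subunit on the other side, was lower at both (-0.64 ± 0.12 and -0.91 ± 0.12). At recovery the differences ran from -1.60 to 0.36, all smaller than that of NFATC2 at -3.42.

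**Figure D4:**
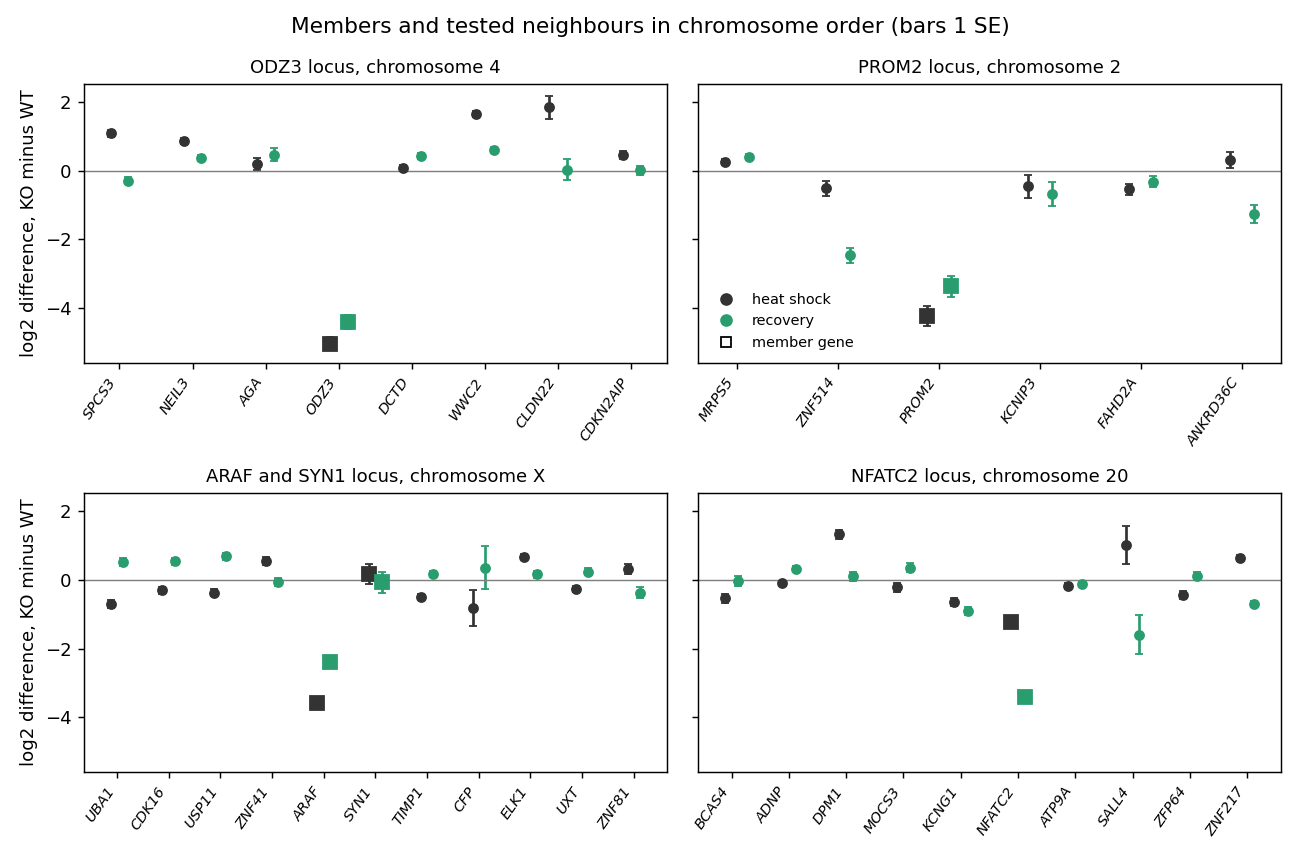
Log2 difference between KO and WT cells at heat shock and at recovery for ODZ3, PROM2, ARAF, SYN1 and NFATC2 (squares) and the tested coding genes beside them (circles), in chromosome order at even spacing, with bars of 1 standard error. ODZ3 lies at -5.04 at heat shock between neighbours of 0.08 to 1.85, and ARAF at -3.58 between neighbours of -0.82 to 0.67. The tested genes drawn before ODZ3 lie at least 4701484 bases from it.

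Last, the pattern of each gene over the 8 libraries was set against those of all genes tested, by the root mean square difference of log2 CPM after centring each gene on its own mean. The profiles carry the difference between the lines by which the 5 genes were chosen, so distances among them are a description. They were 0.49 between PROM2 and ARAF, 0.59 between ODZ3 and PROM2, and 0.82 between ODZ3 and ARAF. NFATC2 lay 0.90 from ARAF, 1.00 from PROM2 and 1.34 from ODZ3, and SYN1 lay 1.26 to 2.32 from the other 4. PROM2 was itself among the 5 genes nearest to ODZ3, which also held CAPN6, a calpain family member (0.37), OSR1, a zinc finger factor (0.50), GPR110, an adhesion receptor (0.65), and NQO1, a quinone reductase (0.66).

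Nearest to PROM2 was NQO1 (0.38), which had 305 and 307 CPM in the WT groups and 31.1 and 29.8 CPM in the KO groups. GPR110 (0.39) came next, with 70.0 and 66.0 CPM in the WT groups and 7.39 and 5.13 CPM in the KO groups. ARAF was most like C20orf151 (0.24), which had no reads in the KO libraries, then MYPN (0.28), SLC23A2, a vitamin C transporter (0.33), ABCA3, a lipid transporter (0.33), and ACPP (0.34). The prior count of 2 shrinks log2 differences of genes with few reads, so a small distance does not mean an equal loss. C20orf151 had 0.67 and 0.54 CPM in the WT groups and ACPP 0.46 and 0.36 CPM. CAPN6, nearest to ODZ3, had 1.72 and 2.13 CPM in WT and 0.014 and 0 CPM in KO. NFATC2 was most like ILDR1 (0.23), KCNJ5, a potassium channel (0.25), ZNF251 (0.26) and GCNT3, a mucin-type glycan enzyme (0.27). ILDR1 had 2.02 and 4.80 CPM in WT heat shock and recovery and 0.72 and 0.34 CPM in KO, so the order of its groups was that of NFATC2. SYN1 lay nearest to FJX1 (0.10) and TLL1 (0.13), and the group means of FJX1 were 4.43 to 5.45 CPM. Likeness was the basis on which these genes were picked, and no test is given.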

How the data were processed

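RNA of 8 libraries was sequenced as 50-base single reads from strand-specific libraries of poly-A RNA or of RNA freed of ribosomal RNA, per the labels' protocols. For the kind used in each library, and for the counting program, nothing was given in the sources used here. Build hg19 and the tools CASAVA and TopHat come from the submitters' processing notes. The authors deposited, per the file headers, a table for each replicate and line with whole-number read counts of 2 libraries, log2 fold changes scaled by column totals, and q-values. Which count column is recovery was read from the order of names and from the sign of the authors' log2 values; if wrong, every recovery change would turn sign. Counts given as NA were set to 0.

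Counts were filtered with filterByExpr, scaled by TMM and tested in edgeR 4.0.16 (R 4.3.3) with its quasi-likelihood test. Recovery was fitted within matched pairs of libraries, as the series design text describes, and the lines were compared without a block, with Benjamini-Hochberg adjustment over 17471 genes and a threshold of 0.05. CPM used TMM-scaled library sizes, errors after ± are standard errors from the F statistic unless marked SD, and likeness used log2 CPM with a prior count of 2. Libraries that share a number did not deviate together from their group means (r = -0.0156 in WT and -0.0138 in KO). Alternatives were RLE and upper-quartile scaling, no filter, the other choice of block, DESeq2 1.42.0, each library left out and, chosen after seeing the data, offsets for GC content and transcript length (95.4% of tested genes had both). The code was tested on simulated data.

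The genes and lists were chosen with earlier results of these data known. The text may name the 5 genes, FBXW7, their family members, up to 4 genes with the lowest p of each list and comparison, the 5 nearest coding genes on each side, and the 5 genes most like each. Clone-named genes among the last were left out, and a few other genes under this rule are not reported here.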

Additional observations from a re-analysis of the deposited data

Results flagged for a closer look

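NFATC2, ARAF and PROM2 were flagged because the 2 pairs of WT libraries moved one way in recovery and the 2 pairs of KO libraries the other. The share of all genes that do so was not computed, so nothing is read from the number flagged. With both changes called, 10.5% of all genes tested rose in WT and fell in KO, and 11.5% did the reverse. The KO response minus the WT response on the log2 scale was -2.19 for NFATC2, 1.18 for ARAF and 0.87 for PROM2. These differences were not tested, since they contain the difference between the lines that chose the genes. For PROM2 the direction of the first WT pair depends on the scaling, and over the 14 alternative settings the difference was 0.34 to 1.04 for PROM2, 0.52 to 1.32 for ARAF and -2.42 to -2.04 for NFATC2.

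Among family members the difference between the recovery responses was itself tested as an interaction, for which 56.3% of all genes passed. NFATC1 had -0.71 (edgeR adjusted p = 3.4e-04), and it passed in all 14 alternative settings, at -1.25 with GC and length offsets. PROM1 had -0.53 (adjusted p = 0.00638), which was lost on leaving out replicate 1 of KO heat shock (-0.37, adjusted p = 0.149) or of KO recovery (-0.33, adjusted p = 0.196) and with the offsets (-0.22, adjusted p = 0.176). BRAF had -0.54 (adjusted p = 0.0102), which was lost with DESeq2 (adjusted p = 0.0548), without replicate 1 of WT heat shock (-0.35, adjusted p = 0.0847), WT recovery (-0.36, 0.0799), KO heat shock (-0.34, 0.203) or KO recovery (-0.31, 0.251), and with the offsets. NFAT5 had -0.36 (adjusted p = 0.044), which was lost in 7 settings: no filter (adjusted p = 0.126), DESeq2 (0.0549), the offsets, and without WT heat shock replicate 2 (-0.29, 0.0839), WT recovery replicate 2 (-0.30, 0.0782), or replicate 1 of KO heat shock (-0.18, 0.504) or of KO recovery (-0.15, 0.6).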

How the results depend on the processing

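Over the 14 alternative settings the log2 difference between the lines is given for ODZ3, PROM2, ARAF and NFATC2 in that order. It ran from -5.20 to -4.92, -4.59 to -3.96, -3.77 to -3.26 and -1.37 to -1.10 at heat shock. At recovery it ran from -4.57 to -4.31, -3.87 to -3.03, -2.73 to -2.30 and -3.58 to -3.33. This difference chose the genes, so its kept direction is no separate evidence for it. Of the number of genes called, that for KO recovery moved most, from 7295 to 4801 with DESeq2 and to between 2838 and 8244 with 1 library left out. Fitting without the pairing block gave 9045 calls in WT recovery against 8874, and changed no call of the 5 genes. Upper-quartile scaling shifted the median log2 value of all genes by -0.105 in the interaction and by -0.166 between the lines at recovery, which made 4212 genes higher and 6852 lower against 5562 and 5464, and by 0.094 in WT recovery (5303 higher and 3686 lower against 4334 and 4540). Several values near 0 turned sign, and the cause was not tested. With 1 library left out, ODZ3 in KO recovery ran from -0.0745 to 0.252, SYN1 in WT recovery from -0.116 to 0.307 and in KO recovery from -0.576 to 0.409, and between the lines SYN2 at recovery from -0.14 to 0.158, NFATC1 at heat shock from -0.0151 to 0.0973 and LPHN1 at recovery from -0.0645 to 0.0676. With upper-quartile scaling the differences were -0.16 for SYN2 and LPHN1 at recovery and -0.0154 for NFATC1 at heat shock. With GC and length offsets, PROM2 in WT recovery was 0.0625. Between the lines those offsets gave 0.0211 for NFATC4 and 0.0049 for LPHN1 and 0.21 for PTRF at heat shock, and at recovery 0.0649 for BRAF, -0.18 for SYN2, -0.16 for LPHN1 and -0.21 for TIMP1. The interaction became 0.0516 for BRAF and 0.14 for NFAT5. The KO levels of PROM2 and ODZ3, at 7 to 24 counts per library, limit their recovery changes.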
